A study of Homo sapiens with 6 samples.

Results

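The 7 genes described here, RAB13, FAM98B, SEM1, FBL, ANP32A, ACAA2 and GNB1, lie at the RNA segments that stood highest by fold enrichment in the non-exon peak list of the first of 2 anti-SF3B4 RNA immunoprecipitations. The peaks described are all deposited peaks that overlap the interval of a gene by 1 bp or more, which gave 50 of 181131 peaks in the 4 deposited lists. Of these, 40 came from the first experiment (RIP-1), with 17 in its non-exon list and 23 in its mRNA list. The second experiment (RIP-2) gave 10, with 9 in its non-exon list and 1 in its mRNA list. Since the genes were picked on RIP-1 values, every RIP-1 value below is a description and carries no test. The RIP-2 lists were not used in the choice, but overlaps and gaps between the experiments depend on it through the RIP-1 peaks.

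RNA immunoprecipitation and sequencing (RIP-seq) recovers the RNA that is bound to a protein with an antibody and sequences it. Wild-type HEK293T cells, a human line of embryonic kidney origin that carries the SV40 large T antigen, served for all 6 libraries, with no genetic change or treatment in the labels. Each of RIP-1 and RIP-2 had an anti-SF3B4 library, an IgG library (non-specific antibody) and an input library, so each group held 2 libraries. The deposited lists hold 1 set of peaks per experiment and no read counts. Depth is therefore unknown, no value has a replicate error, and the IgG and input libraries have no values of their own here. The labels do not say whether RIP-1 and RIP-2 came from separate cultures.

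SF3B4 belongs to the SF3b complex, through which the U2 small nuclear ribonucleoprotein recognises the branch site of an intron before splicing. A protein of this kind meets precursor RNA that still holds its introns, and in an immunoprecipitation it can also bring down RNA of the particles it belongs to. The authors named their lists mRNA and NotExon, names that the labels do not define. The exons of the 7 genes in the build of the lists (hg19) were not at hand, so a non-exon peak is a member of that list and is not shown to be intronic.

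The genes have different roles in the cell. RAB13 is a small GTPase of vesicle traffic and of cell junctions. FAM98B belongs to the tRNA ligase complex around RTCB and DDX1. SEM1, also called DSS1, is a small subunit of the proteasome lid and a partner of BRCA2. FBL, fibrillarin, is the methyltransferase of box C/D small nucleolar ribonucleoproteins. ANP32A is an acidic nuclear protein of the histone chaperone and phosphatase inhibitor family. ACAA2 is a mitochondrial thiolase of fatty acid oxidation, and GNB1 is a beta subunit of heterotrimeric G proteins.

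The intervals (hg19) ran over chr1:153953000-153960000 for RAB13, set with flank, chr15:38746328-38779911 for FAM98B, chr7:96318079-96339203 for SEM1 and chr19:40324900-40337054 for FBL. Those of the other genes were chr15:69070874-69113261 for ANP32A, chr18:47309874-47341300 for ACAA2 and chr1:1716725-1822526 for GNB1. The RefSeq gene RAB13 measures 9059 bp, more than the 7001 bp of its interval, so values for RAB13 hold for that interval and not for the whole gene. The interval lengths ranged from 7.0 kb for RAB13 to 105.8 kb for GNB1, and they summed to 253.5 kb. The strand given in the mRNA lists was minus at 6 of the genes and plus at FAM98B. That strand was used below to give positions from the 5′ side of each interval.

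Several mRNA-list pieces of RIP-1 had an edge exactly at the 5′ end of an interval. At FAM98B, SEM1, FBL and ANP32A, 4 of the 6 genes whose interval was given without flank, the outermost piece had its edge at the 5′ end of the interval. At GNB1 the outermost piece ran 30 bp past it. For SEM1 that end is not shown to be the start of the gene, since RefSeq (GRCh38.p14) gives it a length of 228221 bp against 21125 bp of the interval. The starts deposited for FAM98B and SEM1 were 1 below the first base of the interval. The deposited ends at SEM1, FBL and ANP32A equalled the last base, so starts of the mRNA lists were read as counted from 0. At the 3′ end of GNB1 the deposited start was 2 below the interval and stayed 1 below it after that reading. The sequences around the starts of FAM98B and GNB1 are shown because a RIP-1 piece covered the first bases of the gene there. They come from RefSeq (GRCh38.p14), and these are the 2 genes whose RefSeq length, 33584 bp and 105802 bp, equals that of the hg19 interval. Each runs 5′ to 3′ on the strand of the gene, from 150 bases before the RefSeq start, and the capitals mark the first 30 bases from that start.
FAM98B: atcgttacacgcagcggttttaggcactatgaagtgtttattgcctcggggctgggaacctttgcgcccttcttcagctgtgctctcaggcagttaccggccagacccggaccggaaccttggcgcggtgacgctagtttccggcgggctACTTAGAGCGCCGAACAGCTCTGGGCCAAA
GNB1: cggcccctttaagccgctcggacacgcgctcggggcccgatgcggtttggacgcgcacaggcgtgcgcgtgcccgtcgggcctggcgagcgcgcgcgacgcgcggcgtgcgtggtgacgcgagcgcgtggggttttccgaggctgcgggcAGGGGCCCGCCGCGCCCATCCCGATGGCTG
In the RefSeq promoter windows of 300 bases, 250 before and 50 after a start, G and C made up 47.0% at FAM98B and 77.3% at GNB1, against a median of 58.7% over 35116 windows of all genes. For the other genes the first window listed held 47.3% at SEM1, 62.3% at RAB13, 65.7% at ACAA2, 67.7% at FBL and 71.0% at ANP32A. SEM1 had 3 windows and RAB13 had 2, and only the first was used. For SEM1 that window is not shown to lie at the 5′ end of the interval. The 7 windows used, 1 per gene, lay on both sides of the median of all genes.

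**Figure D1:**
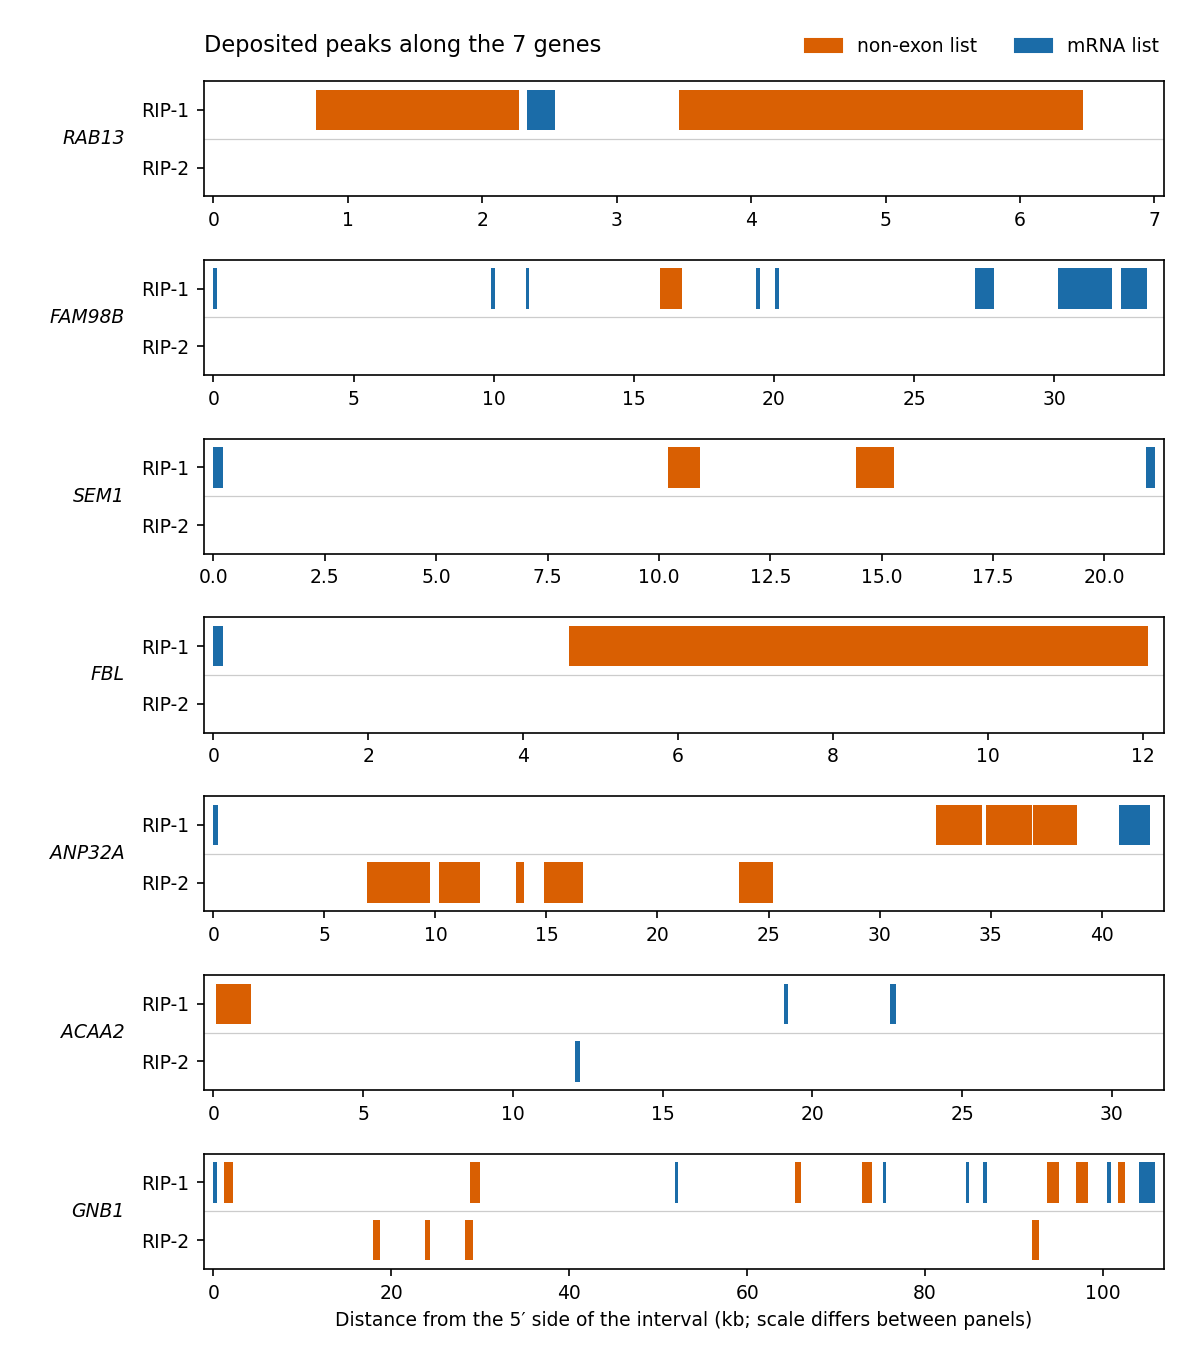
Upper tracks hold RIP-1 and lower tracks RIP-2 peaks along the interval of each gene, with distance from its 5′ side in kb on the horizontal axis and a scale of its own in each panel. Orange boxes are non-exon peaks and blue boxes mRNA-list pieces, drawn at their deposited extent or, if narrower, at a fixed smallest width; RIP-2 tracks are empty at RAB13, FAM98B, SEM1 and FBL.

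RAB13 carried the peak with the highest fold enrichment of the RIP-1 non-exon list. The fold enrichment, the score and the false discovery rate (FDR) are the authors' values for each peak; the score rises as the caller's p-value falls, on a log10 scale as far as the values show, and the strongest peaks gather at 3100. The first RAB13 peak, chr1:153953535-153956537, was 3003 bp wide and had a fold enrichment of 179, a score of 3100 and an FDR of 2.53%. The other, chr1:153957731-153959239, had a fold enrichment of 73.4 and ranked 6 among 25797. Between them lay an mRNA-list piece of 209 bp with a score of 3108, 922 bp from the first and 62 bp from the other, and the 3 peaks together covered 67.4% of the interval. RIP-2 had no peak in either list over these 7.0 kb, and its nearest peak lay 14319 bp outside.

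At FBL a single RIP-1 non-exon peak, chr19:40324988-40332468, was 7481 bp wide and covered the 3′ part of the gene. Its fold enrichment was 80.7 (rank 4) and its score 3100. The only other RIP-1 peak was the mRNA-list piece of 124 bp at the 5′ end, also with a score of 3100. Together they covered 62.6% of the interval, close to the share at RAB13, while the other 5 genes were covered over 4.62% to 18.2% of their length. RIP-2 had no peak at FBL, and its nearest peak was 27592 bp away.

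FAM98B had 8 mRNA-list pieces and 1 non-exon peak in RIP-1, covering 4133 and 798 bp. The non-exon peak, chr15:38762254-38763051, was 798 bp wide, lay 15926 bp from the 5′ end and had a fold enrichment of 94.5 (rank 2), a score of 2779.97 and an FDR of 2.17%. The pieces numbered 3 upstream of it and 5 downstream, and 5 of the 8 had a score of 3100. The other pieces scored 2513 at the 5′ end, 2745 at the next position and 179 at the 3′-most one, so only the last stood clearly below the rest. The peak numbers of the caller ran without a gap from 10887 to 10895 across the interval. RIP-2 again had none, with its nearest peak 13432 bp away.

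SEM1 had 4 RIP-1 peaks. The strong non-exon peak, chr7:96323931-96324772, had a fold enrichment of 93.7 (rank 3), a score of 2452 and an FDR of 1.82%. A weak one, chr7:96328278-96329004, had a fold enrichment of 6.63, near the list median of 6.55, and an FDR of 100%. Both ends of the interval were the edges of mRNA-list pieces, with scores of 3100 at the 5′ end and 715 at the 3′ end. RIP-2 had no peak there, and its nearest lay 15678 bp outside.

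**Figure D2:**
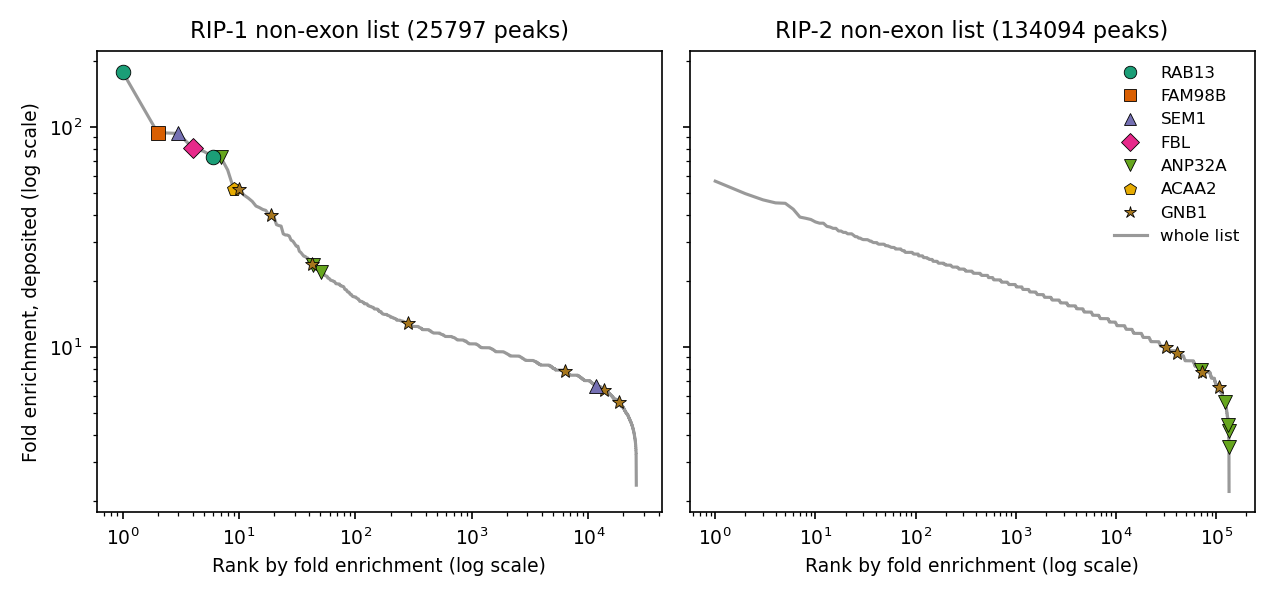
Fold enrichment of non-exon peaks against their rank in the list of RIP-1 (left) and RIP-2 (right), both axes on log scales; the grey line is the whole list and each symbol a peak at one of the 7 genes. In RIP-1, 8 of the 10 highest peaks lay at these genes, whereas the 9 RIP-2 peaks lay between fold enrichments of 3.51 and 10.02, the highest of them at rank 31688 of 134094.

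At ANP32A each experiment had 5 peaks. In RIP-1, 3 non-exon peaks followed each other with gaps of 53 and 207 bp from 69074376 to 69080728 on chromosome 15. Their fold enrichments from the 3′ side were 22.07, 72.85 and 23.8, and their scores 1623, 3100 and 3094. The middle one thus stood above both its neighbours. An mRNA-list piece of 1415 bp near the 3′ end scored 3100 and one of 225 bp at the 5′ end scored 1075.

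The 5 RIP-2 peaks at ANP32A were all non-exon and lay in a stretch without RIP-1 peaks, from 69088081 to 69106348. Their fold enrichments from the 3′ side were 5.65, 4.16, 4.41, 7.91 and 3.51, all below the RIP-2 list median of 8.19. Their scores were 125, 73.1, 53.7, 189 and 66.5, and their FDRs ran from 70.7% to 100%. The peaks scoring 189 and 125 had an FDR of 100% and the one scoring 53.7 had 70.7%, so the highest FDR did not mark the lowest score. None overlapped a RIP-1 peak, and the smallest gap between the experiments was 6688 bp. The density of RIP-2 peaks was 11.8 per 100 kb against 4.33 over the whole list, and they covered 19.6% of the interval against 18.2% in RIP-1. The covered parts of ANP32A were thus alike in length and separate in place.

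GNB1, the longest gene, held 14 RIP-1 peaks, against 4 from RIP-2. Of the 7 non-exon peaks of RIP-1, chr1:1756474-1757171 had a fold enrichment of 52.5 (rank 10) and chr1:1719999-1720880 one of 39.7 (rank 19), both with a score of 3100. Those at 1748496 and 1724163 had fold enrichments of 23.9 and 12.8 and FDRs under the 5% limit. The last 3, at 1727419, 1792588 and 1820366, had fold enrichments of 7.77, 6.37 and 5.61 and an FDR of 100%. The 7 mRNA-list pieces lay among them, with scores from 445 to 3100, of which 3 stood at 3100. GNB1 so held both the strong and the ordinary range of the RIP-1 list.

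The RIP-2 peaks at GNB1 had fold enrichments of 7.71, 10.02, 6.56 and 9.40, in order from the 3′ side, and scores of 64.6, 175, 51.2 and 104. Their FDRs in the same order were 78.8%, 100%, 69.0% and 100%. The RIP-1 peak chr1:1792588-1793630 and the second RIP-2 peak, chr1:1793331-1794190, overlapped by 300 bp, or 28.8% of the former and 34.9% of the latter. Both peaks of this pair had an FDR of 100%. It was the weak RIP-1 peak of fold enrichment 6.37 and score 73.2 that was met, and neither of the peaks at a score of 3100. The RIP-2 peak at 1729739 came within 865 bp of a RIP-1 peak and did not touch it.

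ACAA2 had 1 strong RIP-1 peak, at its 5′ side, and only weak pieces elsewhere. The non-exon peak chr18:47340053-47341212 ended 88 bp inside the interval and had a fold enrichment of 52.5 (rank 9), a score of 3100 and an FDR of 2.53%. The 2 mRNA-list pieces further along scored 50.9 and 65.4, and 2.31% and 31.9% of the RIP-1 mRNA list scored lower. At the other 6 genes the lowest score of 21 pieces was 179. RIP-2 had a single piece of 167 bp at ACAA2, chr18:47329057-47329223, with a score of 93.8, and it lay 6805 bp from the nearest RIP-1 piece. In RefSeq (GRCh38.p14) the next genes past the 5′ end of ACAA2 are SNHG22 and SCARNA17, which start at the same base; SCARNA17 is a small Cajal body RNA, a class that guides the modification of spliceosomal RNAs. The RefSeq length of ACAA2 is 57 bp shorter than the interval, and the position of these neighbours in hg19 was not at hand, so their overlap with the peak was not analysed here.

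**Figure D3:**
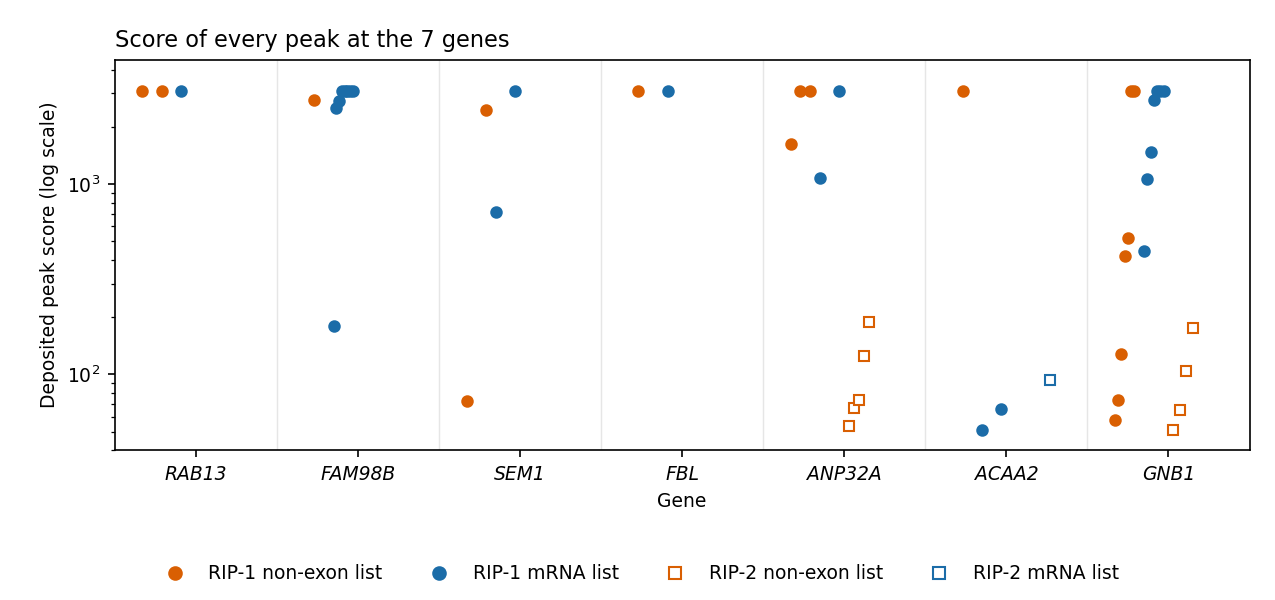
Score of each of the 50 peaks by gene, on a log scale; filled circles are RIP-1, open squares RIP-2, orange the non-exon and blue the mRNA lists. RIP-1 scores reach 3100 at every gene, while RIP-2 scores do not pass 189 and exist at ANP32A, ACAA2 and GNB1.

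Set side by side over the 7 genes, the RIP-1 non-exon peaks had a median fold enrichment of 39.7 and a range from 5.61 to 179, against a median of 6.55 in the whole list. A score of 3100 or more was held by 7 of the 17 peaks, against 0.0814% of the list, and an FDR of 5% or less by 12, against 0.678%. In the RIP-1 mRNA list 12 of the 23 pieces scored 3100 or more, against 0.529%. The non-exon shares follow from the choice of the genes on the same list. The mRNA-list share comes from the same experiment and is not independent of that choice. Nothing is read from any of them. The median width of the non-exon peaks was 1174 bp here and 710 bp over their list. Per length, RIP-1 had 4.29 peaks of both lists per 10 kb at RAB13, 2.68 at FAM98B, 1.89 at SEM1, 1.65 at FBL, 1.32 at GNB1, 1.18 at ANP32A and 0.955 at ACAA2.

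In RIP-2 the same genes held about as many peaks as the mean densities of the lists over whole chromosomes would give. A density over genes alone was not computed. The non-exon peaks numbered 9, all at 2 of the genes, or 3.55 per 100 kb against 4.33 over the list. At the latter density 10.98 would fall on intervals of this length. The 1 mRNA-list piece corresponded to 0.395 per 100 kb against 0.332. These rest on few peaks and on single genes: without ANP32A the non-exon density was 1.89 per 100 kb, and without ACAA2 no mRNA-list piece remained. The median fold enrichment was 6.56 against 8.19 over the list and the median score 73.1 against 80.6. None of the 10 RIP-2 peaks scored 3100 or more, against 0.00597% of the non-exon and 0.0195% of the mRNA list, and none of the 9 that carry an FDR had one of 5% or less, which could not be otherwise, since the share over that list was 0.0%. With 1 list per experiment these differences were not tested.

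**Figure D4:**
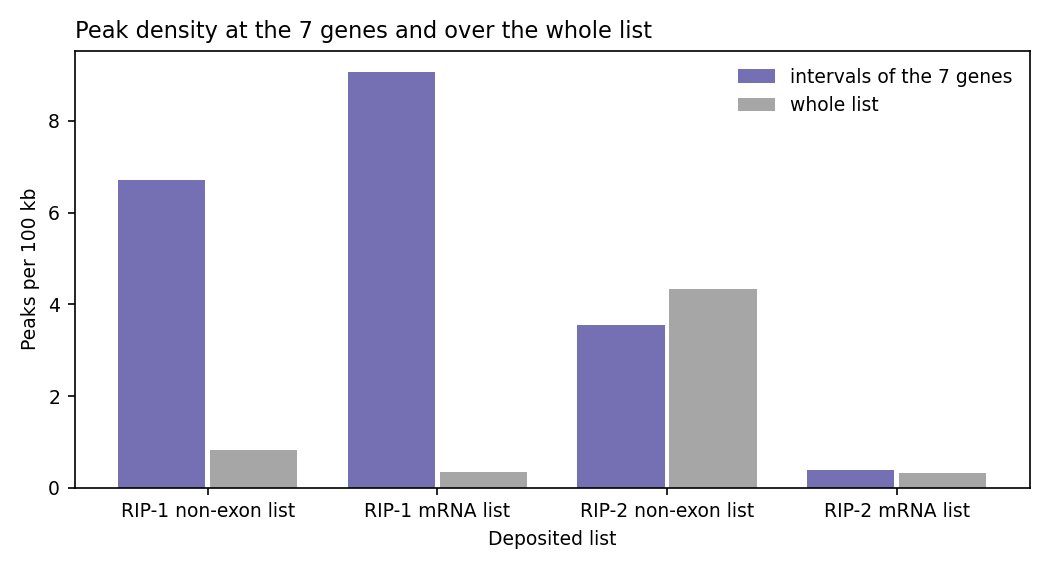
Peaks per 100 kb in each deposited list, within the intervals of the 7 genes (purple) and over the whole list (grey). The bars of RIP-1 stand at 6.71 and 9.07 against 0.834 and 0.354, a contrast not independent of the choice of the genes on RIP-1. Those of RIP-2 stand at 3.55 and 0.395 against 4.33 and 0.332.

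The submitters state that the repeated experiments were compared with each other, and overlap of peaks is the measure chosen here. Overlap was met by 1 of the 17 RIP-1 non-exon peaks, the pair at GNB1 (5.88%, 95% Wilson interval 1.05 to 26.98), against 18.1% of the whole list. It was met by 0 of the 23 mRNA-list pieces, where a limit of 3 counts allows a share of up to 13.04% and the Wilson interval one of up to 14.3%, against 6.41% of the list. From the side of RIP-2, 1 of 9 non-exon peaks (background 3.63%) and 0 of 1 mRNA-list piece (background 6.91%) overlapped a RIP-1 peak. These RIP-2 shares also depend on the choice of genes rich in RIP-1 peaks, so they are not independent of it. The interval and the limit cover counting error only and treat peaks of 1 gene as independent, which they are not, so the shares stand beside those of the lists without a test. The 1 RIP-1 peak that was met had a fold enrichment of 6.37, and no relation to strength is read from a single pair.

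Gaps between the experiments differed in direction by the side they were measured from, and no difference was tested. From a RIP-1 non-exon peak to the nearest RIP-2 peak of either list the median gap was 15080 bp at the 7 genes, with the highest at 30292 bp, against 4111 bp over the list. For the mRNA-list pieces the median was 16651 bp, with a range from 5349 to 39623 bp, against 9916 bp. From the RIP-2 side the gaps to the nearest RIP-1 peak were shorter than over the lists. The median was 7352 bp against 27215 bp for the 9 non-exon peaks, and 6805 bp against 14627 bp for the 1 mRNA-list piece. Because the genes were picked for their RIP-1 peaks, a RIP-2 peak inside them lies near a RIP-1 peak by that choice. Nothing is read from these shorter gaps. Peaks of 1 gene share their surroundings, so the RIP-1 medians rest on 7 places and those of RIP-2 on 3.

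The choice of genes did not take in every peak of this strength. The strongest peaks of the 7 genes ran down to a fold enrichment of 52.5 at ACAA2 and GNB1, and the highest peak outside them had 77.6. Most like them by fold enrichment in RIP-1 were 5 other non-exon peaks, given as positions because genes could not be assigned in hg19. They were chr5:79654474-79655343 at 77.6, chr7:44016994-44018978 at 63.9, chr7:77214410-77215484 at 49.2, chr13:114878713-114879675 at 47.7 and chr21:46398703-46399237 at 46.0. None overlapped a RIP-2 peak, and their gaps to the nearest one ran from 15024 to 25984 bp. At RAB13, FAM98B, SEM1 and FBL the interval itself lay 13432 to 27592 bp from the nearest RIP-2 peak.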

How the data were processed

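The submitters' processing notes name cutadapt 1.9.3, HISAT2 2.0.4 and the build hg19. Per the labels' protocols, ribosomal RNA was removed and paired-end reads of 150 bp were sequenced. Peak names in the deposited lists carry the prefix of the caller MACS; neither its version and settings nor the control library is recorded in the labels or file headers. Within an experiment no peak number was missing from or repeated across the 2 deposited lists, so each pair was taken as 1 call that the authors divided, although the labels do not state this.

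Units were taken from the values, since the lists have no header. The score of the deposited lists is 10 times the negative log10 of a p-value as far as its floor of 50 shows. The deposited non-exon lists also hold a fold enrichment, which is a ratio over the control, an FDR in percent, and positions counted from 1. No column was left unmapped.

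Peaks were assigned to a gene by an overlap of 1 bp or more and called shared when they overlapped a peak of the same kind of list in the other experiment, on the same strand where given. Density over a list used the summed positions of the last peak on each chromosome, 3094 Mb. Python 3.11.15, pandas 2.3.3, numpy 2.4.6, scipy 1.17.1 and matplotlib 3.10.9 were used, and the interval functions were tested on simulated data. All 7 RefSeq symbols matched. The members, intervals and rules for naming (all 7 genes, the strongest RIP-1 non-exon peak of each, mRNA-list and RIP-2 peaks in full up to 5 per gene and otherwise the strongest 3 by score, and the 5 most similar peaks) were chosen with earlier results of these data known. Further peaks named at RAB13, FAM98B, SEM1, ANP32A and GNB1 go beyond the rule and were named after their values were seen. No test was fitted.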

Additional observations from a re-analysis of the deposited data

How the results depend on the processing

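Of 74 alternative values, 60 stayed within 1.5 times the main value and 14 moved further. Some of the 60 could not move. The 0 shared RIP-1 mRNA-list pieces stay 0 under any stricter rule, and the RIP-2 mRNA-list score rests on 1 piece. The count is therefore no measure of how firm the results are. Sharing of RIP-1 non-exon peaks at the genes, 1 of 17, fell to 0 when 50% of both peaks had to overlap or when a RIP-2 peak had to hold the RIP-1 midpoint. In the upper 50% of the lists by score, 4 RIP-2 non-exon peaks remained, with a median score of 150, by construction of that setting. With intervals extended by 10 kb on both sides, the density per 100 kb was 5.85 for the RIP-1 mRNA list, 2.29 for the RIP-2 non-exon list and 0.254 for the RIP-2 mRNA list. The RIP-2 non-exon density was 1.89 without ANP32A, and the RIP-2 mRNA-list density was 0 without ACAA2 and 0.677 without GNB1. Taking the strongest non-exon peak of each gene alone gave a median fold enrichment of 80.7 in RIP-1, over 7 genes. In the RIP-2 non-exon list it gave a median score of 182, over only the 2 genes with a peak, ANP32A and GNB1. By the mRNA list alone, 3.72% of the intervals was covered in RIP-1 and 0.0659% in RIP-2. No paired analysis was possible because the lists hold no values for single libraries, and leaving out an experiment leaves no comparison, so neither was run. Unknown depth and control limit every comparison of RIP-1 with RIP-2.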
